A study of Homo sapiens with 2 samples.

Results

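The actin, myosin and tubulin genes were the 80 genes, of 30484 gene names on the array, whose array name was that of an actin, an alpha-actinin, a numbered myosin heavy or light chain or unconventional myosin, or a tubulin or gamma-tubulin complex gene. They were read by 134 of 41000 probes on 143 spots, and their names alone chose them. They comprised 6 actins, 4 alpha-actinins, 13 class II myosin heavy chains, 9 myosin light chains, 23 unconventional myosins, 8 alpha tubulins, 9 beta tubulins, and 8 genes for gamma, delta and epsilon tubulin and the gamma-tubulin complex. The study compared SAS, an established cell line from a human tongue squamous-cell carcinoma, with eSAS, the population that repeated rounds of selection for large spheroids had drawn from SAS cells. Total RNA of each population, taken in log-phase growth, was labelled with Cy3 and hybridised to 1 array. With 1 array per population there was no replicate and no test, and each value below compares these 2 arrays and not the conditions. The populations were bulk cultures, so fewer cells of a type and less RNA per cell cannot be told apart.

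Actin polymerises into the filaments of the cell cortex and stress fibres, which alpha-actinins cross-link. Non-muscle class II myosins pull on these filaments, each motor being built from heavy chains with regulatory and essential light chains, and unconventional myosins carry cargo or membrane along them. Microtubules are polymers of alpha and beta tubulin dimers, and the gamma-tubulin complex seeds them at the centrosome. Cells in a spheroid lose the flat substrate on which stress fibres form, and transcripts of actin and tubulin often serve as the level against which other genes are read.

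Actin genes are textbook targets of serum response factor, which binds the CArG box and answers to the pool of free actin. The CArG box was searched on both strands in the 250 bases before each start listed in RefSeq (GRCh38.p14). Of 27305 genes in that table, 394 (1.44%) held a box, against 9 of the 69 members in it (13.0%), among them 4 of 5 actins. The 5 windows below are shown because these genes hold a box and were detected on the arrays, so that each can be set beside its RNA value. They lie at chr1:229434142-229434231 (ACTA1), chr15:34795609-34795698 (ACTC1), chr17:81512844-81512933 (ACTG1), chr14:68977688-68977777 (ACTN1) and chr15:59372872-59372942 (MYO1E), all on the minus strand and written 5′ to 3′ along the gene, with the box in capitals. A box is a match of letters and not a measured binding site.
ACTA1: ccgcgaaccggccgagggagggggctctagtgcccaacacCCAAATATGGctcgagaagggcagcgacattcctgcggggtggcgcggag
ACTC1: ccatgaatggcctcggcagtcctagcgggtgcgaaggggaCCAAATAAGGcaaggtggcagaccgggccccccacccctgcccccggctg
ACTG1: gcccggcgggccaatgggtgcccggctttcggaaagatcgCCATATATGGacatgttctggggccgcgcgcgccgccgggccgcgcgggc
ACTN1: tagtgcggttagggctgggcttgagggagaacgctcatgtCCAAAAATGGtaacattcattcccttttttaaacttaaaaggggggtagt
MYO1E: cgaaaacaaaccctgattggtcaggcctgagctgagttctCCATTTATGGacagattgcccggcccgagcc
The sixth detected member with a box was TUBG2, while ACTG2, MYL7 and MYO1A held a box and were not above background on either array. ACTB is not in the table.

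The values were processed signals in scanner units, and each log2 ratio is eSAS over SAS after division by the 75th percentile of each array, 1242 in SAS and 1196 in eSAS. Of the 134 member probes, 1 was left out because the scanner software had marked its spot as non-uniform in eSAS. Of the remaining 133 probes, 97 stood well above background in SAS, eSAS or both and are called detected, and the 93 that did so in both are called measured. The 97 probes read 58 genes. No member spot was saturated. Repeated spots of the same probe gave an error of 0.18 (SD of the log2 ratio over 21 probes) at signals under 100, 0.075 (53 probes) from 100 to 1000 and 0.042 (137 probes) above 1000. This error covers the spotting and scanning of 1 hybridisation and holds nothing of culture or labelling.

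The squamous identity of both populations was read from 8 markers fixed for keratinocytes and squamous carcinoma (KRT5, KRT6A, KRT14, KRT17, TP63, CDH1, EPCAM and SFN), and all 8 were well above background on both arrays. Of the 8, 3 (KRT5, KRT14 and SFN) were at least 1.5-fold lower in eSAS, against 4.98% of all genes. Their log2 ratios were -0.63 for KRT5 and -0.59 for SFN, and -6.58 and -1.23 at the 2 KRT14 probes. The median of the 8 markers was -0.51, against -0.00 for all genes, and EPCAM alone was not lower (0.04). Of 8 striated muscle markers, 5 in SAS and 4 in eSAS were above background, with a summed signal of 536 and 380 over 11 probes, and TTN, CKM and TNNC2 were dim on both arrays. Of 8 smooth muscle and fibroblast markers 3 and 2 were above background, and the summed signal of their 11 probes was 139 and 144. Of 4 markers each, 3 and 1 for neurons and 3 and 2 for ciliated cells were above background. Of 4 leukocyte markers 2 were so on each array, with a summed signal of 3200 in SAS and 3178 in eSAS over 6 probes.

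Taken over all measured member probes, the RNA of the actin, myosin and tubulin genes differed little between the arrays. The other detected probes, of MYH4, MYL9, MYO16 and TUBB4A, were dim in eSAS. Their bounds were log2 ratios of -1.97, -0.94, -0.79 and -0.32, and they are left out of the medians and SDs that follow. Each was taken against the eSAS floor of 15.2, the lowest signal well above background there, or, for MYL9, its own dim signal. MYL9 at 18.2 exceeded the floor and was still dim, so a true decrease may be smaller than its bound. The median log2 ratio of the 93 measured probes was -0.00, as was that of all 26659 probes measured, and the middle of the members ran from -0.13 to 0.08 between quartiles. Within 1.2-fold of equality lay 76 of the 93 member probes (81.7%), against 72.8% of all probes. These shares were not matched for brightness, and members were brighter, with 54 of 93 probes above a signal of 1000 against 10479 of 26659. The SD of the log2 ratio was 0.24 over member probes and 0.36 over all. At signals above 1000, where spots repeat best, the SD was 0.17 for 54 member probes and 0.23 for all 10479. From 100 to 1000 it was 0.22 for 31 member probes and 0.37 for all, and under 100 it was 0.58 for 8 member probes and 0.50 for all.

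**Figure D1:**
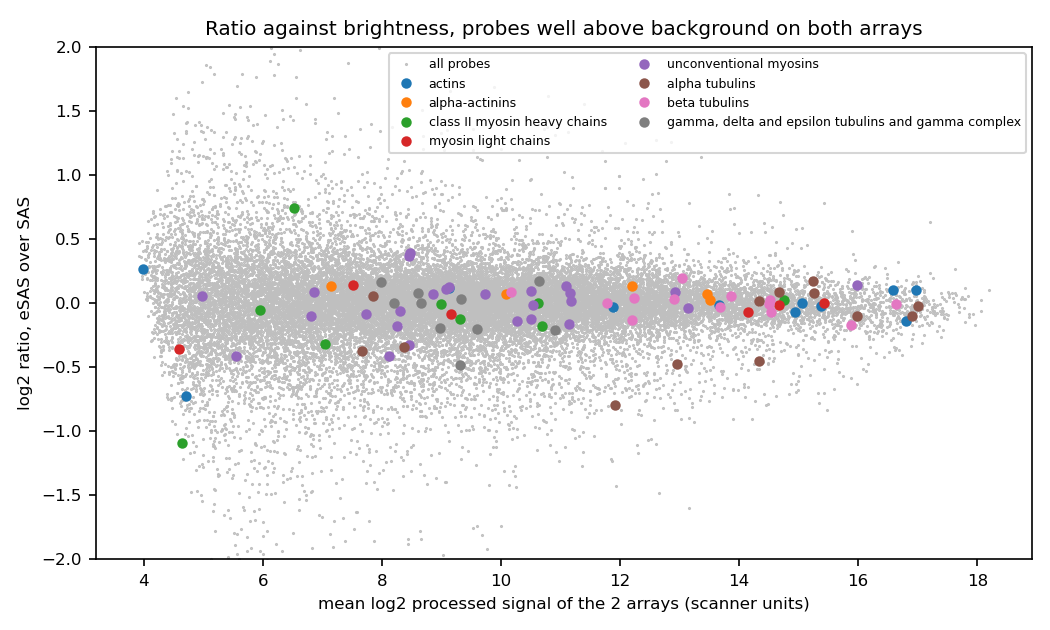
Log2 ratio of eSAS over SAS (vertical axis) against the mean log2 processed signal of the 2 arrays (horizontal axis, scanner units) for every probe measured on both arrays (grey) and the 93 member probes by family (colours). Above a signal of 1000, the SD of the log2 ratio was 0.17 for 54 member probes and 0.23 for all 10479. In addition, 89 grey probes beyond 2 on the log2 scale lie outside the plot.

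At 1.5-fold, 1 of 97 detected member probes was higher in eSAS, against 4.43% of all detected probes, and 6 were lower, against 6.12%. At 2-fold none was higher, against 1.83%, and 2 were lower, against 1.97%. The members' shares were thus near or under those of the whole array. Among probes with a mean signal of at least 100, 5.74% of all but only 1 of 85 member probes differed by 1.5-fold in either direction, and that was a probe of TUBA4A. The other 6 probes past 1.5-fold, those of MYH3, MYH4, MYH6, ACTA1, MYL9 and MYO16, all had a mean signal under 100. Those of MYH4, MYL9 and MYO16 passed only by their approximate bounds. Averaged by gene, 1 of 55 member genes was at least 1.5-fold higher (MYH3; 3.19% of all genes) and 2 were at least 1.5-fold lower (ACTA1 and MYH6; 4.98%).

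By the finer measure of 2 spot SDs for the brightness of the probe, 16 of the 93 measured member probes were higher, against 23.5% of all probes, and 25 were lower, against 25.2%. Of the 13 measured alpha tubulin probes 7 were lower, and 4 of those 7 read the single gene TUBA4A. Of the 26 measured unconventional myosin probes, 7 were lower and 6 higher, near the shares of all probes. None of the 6 measured myosin light chain probes lay outside 2 spot SDs; MYL9, dim in eSAS, is not among them.

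Cytoplasmic beta-actin (ACTB) and gamma-actin (ACTG1), the isoforms of every non-muscle cell, were almost level between the arrays. The ACTB probe spotted 10 times read 12848 to 13778 in SAS (median 13181) and 11895 to 13043 in eSAS (median 12693). After scaling its log2 ratio was -0.02 ± 0.028 (SD over 10 spots, from -0.08 to 0.01), so the spots of both arrays overlapped. The other ACTB probes had log2 ratios of -0.03, -0.07 and -0.14, the last from signals of 121634 in SAS and 106374 in eSAS. ACTG1 read 126377 in SAS and 130780 in eSAS with 1 probe, a log2 ratio of 0.10, and had 0.10 and 0.00 with the others. All 7 probes of the cytoplasmic actins thus stayed within 1.2-fold.

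Among the muscle actins, ACTA2 and the brighter ACTC1 probe were level, and ACTA1 was lower near background. ACTA2, the smooth muscle actin that also marks myofibroblasts, read 544 in SAS and 567 in eSAS (log2 ratio 0.11). The cardiac actin ACTC1 had a probe at 3887 and 3671 (-0.03) and another near background at 14.7 and 17.1 (0.27). These signals lie far apart, so the level of ACTC1 RNA is uncertain. The skeletal actin ACTA1, at 34.4 in SAS and 20.1 in eSAS, was 1.65-fold lower (log2 ratio -0.72). That value depended on the background step and was -0.17 with no background correction. With the normexp background model it turned to 2.63, while the median of all probes moved to 0.53. Fitted without spots whose local background was marked, normexp gave -0.26. The enteric smooth muscle actin ACTG2 was dim on both arrays. Among the 6 actins 9 of 11 measured probes lay within 1.2-fold.

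Alpha-actinins cross-link actin filaments and anchor them at adhesions (ACTN1, ACTN4) or in the sarcomere (ACTN2, ACTN3). ACTN1 read 11762 in SAS and 11486 in eSAS with 1 probe (log2 ratio 0.02) and had 0.07 with the other. ACTN4 had 0.13 and 0.07, the first from 4560 and 4820. ACTN3, at 138 and 146, had 0.14, and ACTN2 was dim on both arrays. All 5 measured probes lay between 0.02 and 0.14, the narrowest range of the 8 families.

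Among the class II heavy chains, those of non-muscle myosin were level at most probes. MYH9, the heavy chain of non-muscle myosin IIA, read 27883 in SAS and 27314 in eSAS with 1 probe (log2 ratio 0.02) and 517 and 496 with the other (-0.00). MYH10, that of IIB, had log2 ratios of 0.00, -0.13 and -0.32 at its 3 probes, the last of which read 150 and 115. MYH14, that of IIC, read 1791 and 1526 (-0.18) with 1 probe and had -0.06 with the other. The 3 non-muscle heavy chains therefore had 6 of 7 probes within 1.2-fold, and the exception was the MYH10 probe at -0.32.

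The muscle heavy chains were at or near background. MYH3, the embryonic skeletal heavy chain, read 72.0 in SAS and 116 in eSAS and was 1.68-fold higher (log2 ratio 0.75), the only member probe at least 1.5-fold higher. MYH6, the atrial heavy chain, read 37.3 and 16.8 with 1 probe, 2.14-fold lower (-1.09), and was dim on both arrays with its other 2 probes. MYH4, a fast skeletal heavy chain, read 61.9 in SAS and was not well above background in eSAS, and was 3.92-fold lower against the eSAS floor. The genes MYH1, MYH2, MYH7, MYH8, MYH11, MYH13 and MYH15 were dim on both arrays. With no background correction the log2 ratios of MYH3 and MYH6 were 0.55 and -0.32, and the bound of MYH4 was -0.79. With normexp, which moved the median of all probes to 0.53, MYH3 had 2.17 and MYH6 2.59, and MYH4 gave no bound. The summed signal of the striated muscle markers, of which ACTN3 is itself a member here, was lower in eSAS (380 against 536). The fall was not shared by all markers. A TNNT3 probe read 102 in SAS and 27.7 in eSAS (log2 ratio -1.83). Its spot lay in row 470, in the stretch where SAS held most of its marked spots. The MYOG probes had -0.56 and 0.01, MYOD1 -0.08 and ACTN3 0.14, while DES and another TNNT3 probe were dim in eSAS. The part of these markers in the heavy chain values, and that of the spot position, was not tested.

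Among the light chains, MYL6 was level and MYL9 passed 1.5-fold only against a signal not well above background in eSAS. The essential light chain MYL6 read 44647 in SAS and 42954 in eSAS with 1 probe (log2 ratio -0.00) and had -0.01 with the other, and MYL6B had -0.07. MYL9, a regulatory light chain of smooth muscle and stress fibres, read 36.2 in SAS and 18.2, not well above background, in eSAS. It was 1.92-fold lower against that dim signal. Its log2 ratio of -0.94 shrank to -0.24 with no background correction, and with normexp the probe gave no bound. MYL3 had -0.08, MYL5 0.14 and MYL2 -0.36, the last at 27.6 and 20.7, within 2 spot SDs for so dim a probe. MYL1, MYL4 and MYL7 were dim on both arrays. The regulatory light chains MYL12A and MYL12B, which the array lists under the older names MRCL3 and MRLC2 and which the choice by name therefore missed, had log2 ratios of 0.18 for MYL12A and -0.04 for both MYL12B probes.

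The 23 unconventional myosins gave the widest set of cargo motors and membrane linkers, and 21 of their 26 measured probes lay within 1.2-fold. The exceptions were MYO5A, MYO15B, MYO5C and MYO7A. MYO5A, a vesicle and organelle carrier, read 398 in SAS and 306 in eSAS with 1 probe (log2 ratio -0.33) and 328 and 237 with the other (-0.42). Its relative MYO5C had 314 and 396 (0.39), while MYO5B, at 1511 and 1443, had -0.01, so the 3 class V members differed from each other by more than 2 spot SDs. MYO7A, a motor of stereocilia and epithelial adhesions, had 313 and 390 (0.37) with 1 probe and was dim with its other. The spots of MYO5C and MYO7A both lay in rows 450 to 510, where 183 of 4999 spots in SAS (3.66%) and 5 in eSAS were marked as non-uniform, against 11 and 3 of the 38377 spots elsewhere, and whether this had a part in their values was not tested. Over the 2793 probes measured there the median log2 ratio was 0.01.

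Class I myosins link actin to membranes, and 3 of them had a pair of measured probes with close values. MYO1C had log2 ratios of 0.14 and 0.07, MYO1D 0.07 and 0.09, and MYO1E -0.16 and -0.18. MYO1E read 2437 in SAS and 2096 in eSAS with the first. MYO6, which moves towards the minus end of actin filaments, had 0.08 and 0.02, and MYO10, the filopodial myosin, -0.04, -0.06 and -0.09. Of the class IX myosins, MYO9A had -0.12, and MYO9B had -0.14 and -0.10. MYO18A had 0.10 and MYO1F, at 31.5 on each array, 0.06. MYO15B read 55.3 and 39.9 (-0.42), and MYO16 read 27.3 in SAS and was dim in eSAS, 1.73-fold lower against the eSAS floor. The MYO16 log2 ratio of -0.79 was, however, -0.20 with no background correction, and with normexp the probe gave no bound. The genes MYO15A, MYO18B, MYO1A, MYO1G, MYO3A, MYO3B and MYO7B were dim on both arrays.

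Alpha tubulin genes encode nearly identical proteins, and TUBA4A was the only member past 1.5-fold at a mean signal of at least 100. TUBA4A was lower in eSAS at all 4 of its probes, but by different amounts. Its probes read 5161 in SAS and 2861 in eSAS (1.74-fold lower, log2 ratio -0.80), 9570 and 6624 (-0.48), 24511 and 17276 (-0.45), and 68506 and 61396 (-0.10). The 4 probes lie within 653 bases at chr2:219823314-219823966 (hg18, the array's coordinates). The probe with the smallest ratio, at chr2:219823439-219823498, overlaps by 12 bases the probe at chr2:219823391-219823450 that had -0.48, so neighbouring probes of this gene did not agree. The range of 0.69 between its probes was the widest among the 26 member genes with at least 2 measured probes.

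The main alpha tubulins of dividing cells were close to level. TUBA1B read 130264 in SAS and 116641 in eSAS (log2 ratio -0.10), TUBA1A 36977 and 40078 (0.17), and TUBA1C had -0.03, 0.09 and 0.08. A further TUBA1C probe read 128490 and 193971 (0.65), but its spot in row 456 was marked as non-uniform in eSAS and its median pixel intensities were 119655 and 124515. TUBA3D had 0.06 at 231 in SAS and 232 in eSAS, and 0.02 at 20798 and 20274. Both TUBA3D probes also list a transcript of TUBA3E, and their signals lie far apart. TUBA3C read 235 and 175 (-0.37) and TUBA8 381 and 289 (-0.35), the latter in rows 450 to 510, and TUBAL3 was dim on both arrays.

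All 13 measured beta tubulin probes lay within 1.2-fold. TUBB, the common beta tubulin, had log2 ratios of 0.04, 0.06 and 0.02, the last from 23752 in SAS and 23204 in eSAS. TUBB4B, listed as TUBB2C, had -0.03 and -0.01, the latter from 103387 and 98983. TUBB6 had -0.17 and -0.07, TUBB2A -0.13 and 0.03, and TUBB8 0.00. TUBB3, the beta tubulin known from neurons and from many carcinomas, read 7982 and 8809 with 1 probe (0.20), whereas the other had -0.01 and also matches a transcript of TUBB6. TUBB4A, listed as TUBB4, had 0.09 at 1138 and 1164, and its second probe read 19.7 in SAS and was dim in eSAS. TUBB1 and TUBB2B were dim on both arrays. In all, 7 detected member probes list transcripts of another tubulin as well, so signal of such close copies cannot be assigned to a single gene by them.

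All 8 genes for gamma, delta and epsilon tubulin and the gamma-tubulin complex were detected. Gamma tubulin itself had log2 ratios of 0.03 (TUBG1) and 0.00 (TUBG2), and epsilon tubulin (TUBE1) had -0.00. Delta tubulin (TUBD1), a centriole protein, read 848 in SAS and 709 in eSAS (-0.20). Of the gamma complex, TUBGCP2 had 0.17, TUBGCP5 0.08 and TUBGCP6 0.17, and TUBGCP3 was lower at each of its probes. Those read 2105 and 1752 (-0.21), 548 and 462 (-0.19), and 767 and 529 (-0.48), the last from row 453. TUBGCP3 and TUBGCP2 are core subunits of the same complex, and their ratios pointed in opposite directions by more than 2 spot SDs each.

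Genes read by several probes allow a check inside each array. Of the 26 member genes with at least 2 measured probes, none had all its probes higher by over 0.15, which is 2 SDs of replicate spots pooled over brightness, against 10.7% of all 5322 such genes, and 3 had all lower (MYO1E, MYO5A and TUBGCP3), against 13.8%. TUBA4A is not in that count because of its probe at -0.10, although all 4 of its probes were lower by over 2 spot SDs for their brightness. The range between probes of a gene had a median of 0.065 in the members and 0.14 in all genes. In 20 of the 26 genes the range stayed under 0.15, against 2874 of all 5322 such genes.

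**Figure D2:**
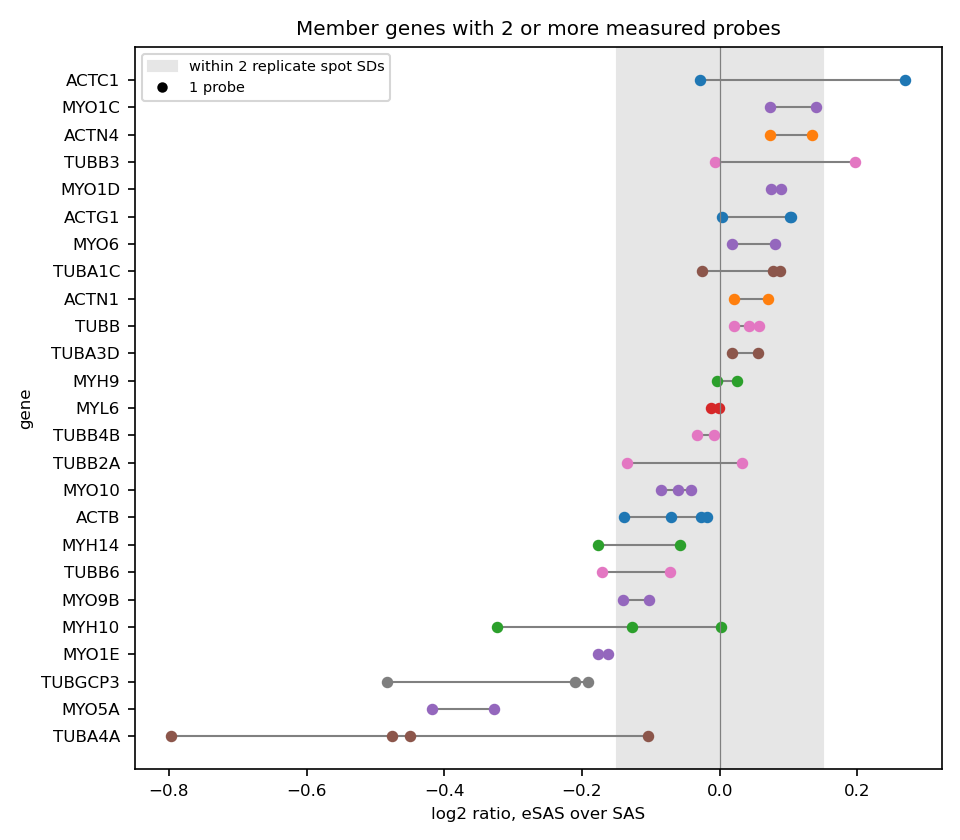
Log2 ratio of eSAS over SAS (horizontal axis) of every measured probe for 25 of the 26 member genes with at least 2 of them (vertical axis), ordered by the gene's mean. Lines join the probes of a gene, the grey band is 2 SDs of replicate spots (0.15), and TUBA4A spans the widest range, 0.69.

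The 6 detected members with a CArG box before their start were read by 11 measured probes with a median log2 ratio of 0.00. Of the genes whose windows are printed above, only ACTA1 had a probe past 1.5-fold, lower and near background. By 2 spot SDs for brightness, ACTG1 was higher at its probes with log2 ratios of 0.10 and not at the other. By the same measure MYO1E was lower at both probes, ACTA1 was lower, and no probe of ACTN1 or ACTC1 lay outside. The genes that share the box therefore showed no common direction.

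Lists of other cytoskeletal genes gave the surroundings of the members. Of 44 genes for proteins that assemble, bind or sever actin or regulate its motors, 43 were measured, and their median log2 ratio was -0.03, against -0.00 for all genes. At least 1.5-fold higher was 1, against 3.19% of all genes (LCP1, a bundling protein of leukocytes, at 55.7 in SAS and 95.1 in eSAS), and 2 were lower, against 4.98%. PLS3, a related bundling protein, read 12757 and 6581 (log2 ratio -0.90), from a spot in row 451, within the rows where SAS held most of its marked spots. TPM1, a tropomyosin that coats and stabilises actin filaments, had a mean of -0.65 over 6 probes, of which 5 lay between -0.97 and -0.59 and the other had -0.10. The means of the other tropomyosins were 0.05 for TPM2, 0.06 for TPM3 and 0.13 for TPM4, and TPM3 hid a spread from -0.39 to 0.66 between its probes. The monomer-binding TMSB4X (-0.58) and the cross-linker FLNA (-0.55) stayed just short of 1.5-fold, whereas cofilin (CFL1, -0.02) and profilin (PFN1, 0.04) were level.

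Of 28 tubulin folding and microtubule genes, 27 were measured, with a median of -0.04, and 1 was at least 1.5-fold higher, against 3.19% of all genes, and 2 lower, against 4.98%. On neither list did these few calls stand clear of the share over all genes. MAPRE2, a plus-end binding protein, read 21.3 in SAS and 184 in eSAS (log2 ratio 3.16) from a spot in row 456 in the same stretch, and its second probe was dim on both arrays. Whether the spot position had a part in the values of PLS3 and MAPRE2 was not tested. MAPT, the axonal protein tau, read 154 and 89.4 (-0.73). HDAC6, a tubulin deacetylase, was lower at both probes, with 1102 and 727 (-0.55) and 197 and 111 (-0.78). Of 20 kinesin, dynein and dynactin genes 19 were measured, none passed 1.5-fold in either direction, and their ratios ran from -0.29 (KIF3A) to 0.35 (KIF14).

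**Figure D3:**
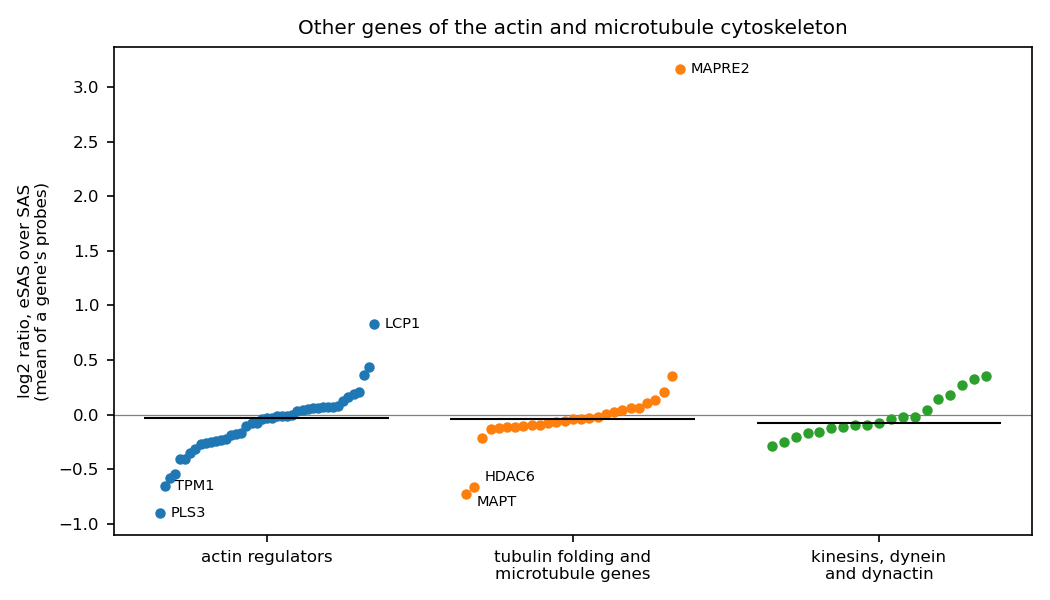
Mean log2 ratio of eSAS over SAS per gene (vertical axis) for 3 lists of other cytoskeletal genes (horizontal axis), with points for genes, black lines for list medians and names at genes past 1.5-fold. The medians were -0.03, -0.04 and -0.08, and MAPRE2 stands apart at 3.16 on a spot in row 456.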

How the data were processed

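RNA of SAS and eSAS cells was hybridised to 1 Agilent 1-colour array each. The authors deposited scanner text files (Agilent Feature Extraction 10.7.3.1, per the submitters' processing notes), whose intensity values are linear and whose processed signal was already corrected for background and not scaled between arrays. Each processed signal was divided by its array's 75th percentile over non-control spots and taken to log2. Spots that the software had marked on either array, for non-uniformity or as outliers of their probe, were dropped, replicate spots were averaged, and a probe was well above background when over 50% of its spots were. A probe dim on 1 array gave a bound against its own signal there or, where larger, that array's floor of 12.8 (SAS) or 15.2 (eSAS), the lowest signal well above background. Some dim probes lie above the floor, so these bounds are approximate. Members and lists were chosen with earlier results of these data known. Genes named were every detected actin, alpha-actinin and tubulin gene, the non-muscle heavy chains, detected light chains, and other members past 1.5-fold; further myosins, MYL12A, MYL12B and list genes were named after their values were seen. The 14 alternatives covered scaling, background, filters, marked spots and array rows. Computation was in Python 3.11.15, with limma 3.58.1 in R 4.3.3 for normexp, and the counting was tested on simulated data. Replicate culture and labelling error is unknown. Some results for single genes are not reported here, although counts include them.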

Additional observations from a re-analysis of the deposited data

How the results depend on the processing

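No paired analysis was possible because there was 1 array per group, and leaving out a replicate was not run for the same reason. Medians here are relative to the median of all probes in the same setting. Counts and single-probe values are not, and the counts stand without the share over all probes, so they describe no trait of the members. Quantile normalization and leaving out rows 450 to 510 kept all 18 summary values and all single-probe values within the spot error or, for counts, within 1.5-fold. None of the single probes followed here lies in those rows, so leaving the rows out is no check on them. Scaling by no factor or by the median cannot move such relative medians, and it kept the counts. The authors' series table equals the processed signal and tests nothing.

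Normexp background correction with an offset of 50 moved most values and moved the median of all probes to 0.53. The member median became -0.70 (-0.69 with median pixels). Of member probes 21 (22) were at least 2-fold higher and, with median pixels, 1 was 2-fold lower, 32 were 1.5-fold higher and 16 lower under both. These counts include the move of the whole array to a median of 0.53. Family medians became -1.02 (-1.01) for actins, -1.06 (-1.07) for alpha tubulins, -1.07 (-1.06) for beta tubulins, -0.61 (-0.63) for myosin light chains, 0.13 (0.14) for unconventional myosins, 0.081 for the gamma group without median pixels, and the reversed -0.82 (-0.83) for alpha-actinins. List medians became -0.99 (-0.96) for actin regulators, -0.23 (-0.24) for microtubule genes and -0.90 (-0.89) for motors, with 1 multi-probe gene all higher and 13 all lower under both. ACTA1 reversed to 2.63 (2.62) and MYH6 to 2.59 (2.60), while MYH3 moved to 2.17 (2.15). The values of MYH4, MYL9 and MYO16 became 0, which stands for no bound. Fitted without spots whose local background was marked as non-uniform, a setting chosen after seeing the data, normexp returned the member median to -0.00, with 0 probes 2-fold lower, 0 higher by 1.5-fold and 2 lower, and with MYH3 at 0.42, MYH4 at -0.88, ACTA1 at -0.26, MYH6 at -0.30, MYL9 at -0.22 and MYO16 at -0.31.

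Without background correction 0 member probes were 2-fold lower, 0 were 1.5-fold higher and 2 lower. With marked spots kept 2 were 1.5-fold higher. Requiring both arrays above background left 1 probe 2-fold lower and 3 lower by 1.5-fold. With no filter 3 were 2-fold higher and 6 lower, 7 were 1.5-fold higher and 12 lower, and the microtubule list had -0.12. With a mean signal of at least 100, also chosen after seeing the data, 0 were 2-fold lower, 0 higher by 1.5-fold and 1 lower. By gene, the actin median was 0.071. The cause of each move was not tested. Signals under 100 limit the muscle isoforms, where spot error is largest.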
